A study of Mus musculus with 18 samples.

Results

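Hlf and Mecom co-expressing cells are the hematopoietic progenitors (HPs) of bone marrow (BM) in which at least 1 transcript molecule (unique molecular identifier, UMI) of both genes was counted. They numbered 833 of 20982 HP cells, in a series of 56201 cells that also holds stromal libraries. The cells were chosen on measured counts of Hlf and Mecom, so the levels of both genes are given as a description and carry no test. Of the 833 cells, 1 came from E16.5 replicate 1, 6 from E16.5 replicate 2, 206 from E18.5, 491 from P0 and 129 from the adult.

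The study followed BM hematopoiesis around birth in C57B6/J mice that carried no transgene or deletion in their labels. Lineage-Kit+ cells, sorted as CD45+ Lineage- c-Kit+, were profiled with droplet single-cell RNA sequencing together with antibody tags (CITE-Seq) at embryonic day 16.5 (E16.5, 2 libraries) and at embryonic day 18.5 (E18.5), postnatal day 0 (P0) and adult age (1 library each, the adult labelled as adult only, with an age range in weeks given by the study's methods for its adult mice as a whole). Every library pooled several animals and the single-cell experiments were not repeated, so no comparison between stages has a replicate check and none was tested. All intervals in parentheses are 95% intervals that cover counting error only, exact Clopper-Pearson for shares of cells and exact Poisson for CPM (UMIs of a gene scaled to the total UMIs of a summed set of cells).

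Hlf encodes a PAR bZIP transcription factor and Mecom a zinc finger transcription factor. Both are known from genetic work as regulators of hematopoietic stem cells (HSCs), which they help to keep in a self-renewing and slowly dividing state, and both fall as cells commit to a lineage. In the mouse genome (mm10, GENCODE vM21) Hlf lies on the minus strand of chromosome 11 from 90336536 to 90390895, and Mecom on the minus strand of chromosome 3 from 29951296 to 30548008. Both are protein-coding. Reads were 3′ tags counted per gene, so isoforms of Mecom were not told apart.

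Co-expressing cells were rare at E16.5 and made up a larger share of HPs from E18.5 onward. Their share of all HP cells was 0.132% (0.0530 to 0.271) over both E16.5 libraries. It was 5.92% (5.16 to 6.76) at E18.5 and 7.91% (7.25 to 8.61) at P0, with 2.16% (1.80 to 2.56) in the adult. The E16.5 libraries gave 0.179% (0.00452 to 0.991) and 0.126% (0.0464 to 0.275), which overlap. The interval at E16.5 lay below those of the later stages, and the adult value lay between E16.5 and the perinatal ones. Hlf alone was found more widely, in 3.46% of E16.5 HPs, 18.2% at E18.5 and 27.0% at P0, with 9.09% in the adult. Mecom was found in 0.546%, 7.22%, 10.1% and 3.49% of the same cells.

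Depth enters this count, because a deeper cell has more chances to yield a molecule of both genes. Co-expressing cells held a median of 27418 UMIs at E18.5 against 10532 in other HPs, 16863 against 19746 at P0, with 8854 against 6631.5 in the adult. After every cell was thinned to 5000 UMIs, with shallower cells left out (150, 1144, 550 and 2496 cells from E16.5 to adult), the share was 0.0619% at E16.5. It was 2.33% at E18.5 and 2.86% at P0, with 1.49% in the adult. E16.5 thus stayed lowest at this equal depth and P0 highest. The order of E18.5 and P0 turned at 10000 UMIs, where the shares were 5.32% and 4.88%.

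**Figure D1:**
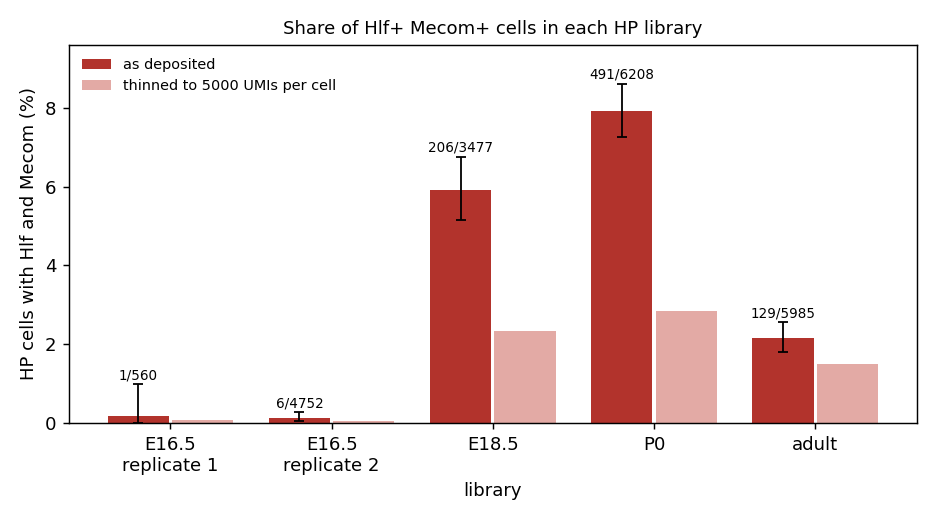
Share of HP cells with at least 1 UMI of both Hlf and Mecom in each library, in percent, as counted and after thinning to equal depth, with exact 95% intervals on the counted shares. As counted, E18.5 (5.92%) and P0 (7.91%) stand above the adult (2.16%), and E16.5 lies near 0.

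Codes of committed cells were used as a background for cells that should lack both genes, although their depths differ and free RNA was not measured. Both genes were found in 0.493% of mast cell codes at E18.5 (1 of 203 cells, median 20573 UMIs), in 0.375% at P0 (2 of 534, median 1498) and 0 of 321 among adult cells (median 719), which allows up to 1.14%. Among neutrophil codes the adult had 4 of 528 cells (0.758%, median 10212 UMIs). In the deposited codes whose names begin with HSPC the share was 34.0% at E18.5 and 28.2% at P0, with 12.7% in the adult, at median depths of 25054, 18719 and 7636 UMIs. T cell codes at P0 held 2 of 68 cells (2.94%, median 9059 UMIs), and B cell codes at P0, nearer in depth to the HSPC codes, 2 of 387 (0.517%, median 13862). At E16.5 the mast cell codes held 0 of 259 and 0 of 1804 cells in the 2 libraries, which allows up to 1.41% and 0.204%. T cell codes there held 1 of 18 and 4 of 2141 cells (0.187%, 0.0509 to 0.478, in replicate 2), and HSPC codes 0 of 33 and 2 of 165 (1.21%, 0.147 to 4.31). With all T cell codes pooled, these intervals of replicate 2 overlap the limit of its mast cells. The pooled shares thus did not set its 6 cells apart from background. That comparison is of shares only and does not cover the 1 cell of replicate 1. Nor does it cover TCell5 alone, the code of all the T cell-coded members. The 2 HSPC-coded cells of replicate 2 were its only cells with at least 2 UMIs of each gene.

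The genes were found together in the same cells. Mecom was found in 32.5% of Hlf-positive cells at E18.5 against 1.58% of Hlf-negative ones, in 29.3% against 2.96% at P0, with 23.7% against 1.47% in the adult. Of Mecom-positive cells, 82.1%, 78.6% and 61.7% also held Hlf, against 13.2%, 21.3% and 7.18% of Mecom-negative ones. At E16.5 it was 24.1% (10.3 to 43.5, 7 of 29) against 3.35%. The overlap is a description in which depth was not held equal.

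Most co-expressing cells held several Hlf molecules and few of Mecom. The median number of Hlf UMIs was 6.5 at E18.5 and 4 at P0, with 2 in the adult, and the median for Mecom was 2, 1 and 1. A single UMI of each gene placed 8.25% of the cells at E18.5 and 13.8% at P0, with 25.6% in the adult. These cells are just inside the rule for both genes. A single Mecom UMI was held by 47.6%, 58.9% and 76.7%, and a single Hlf UMI by 11.65%, 17.5% and 29.5%. Such cells are just inside the rule for that gene. Just outside the rule were the cells with only one of the genes, 427 with Hlf and 45 with Mecom at E18.5, 1187 and 134 at P0, with 415 and 80 in the adult. Summed over the cells, Hlf was at 258 CPM, 235 CPM and 271 CPM, and Mecom at 80.1 CPM, 93.1 CPM and 115 CPM at E18.5, P0 and adult.

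Some cell barcodes occurred in more than 1 library of the series. Of the 833 cells, 37 had a barcode shared with another library (23 at E18.5 and 14 at P0). The partner lay in another HP library for 19 cells at E18.5 and 1 at P0, and in a stromal library for 6 and 13. None of the partners in HP libraries held both genes, while 1 partner among the stromal cells at P0 did. At E18.5, 18 cells shared their barcode with an adult cell, with a median of 50353 UMIs against 441 UMIs in the partners, 16 of which carried the code MyP4. Without any shared barcode the shares were 0.143%, 6.00%, 8.09% and 2.48% from E16.5 to adult.

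The deposited cluster codes placed most of these cells among the HSPC codes. At E18.5, 132 of 206 cells (64.1%, 57.1 to 70.6) were in HSPC2, and 62 (30.1%) were in MyP1. At P0, 425 of 491 (86.6%, 83.2 to 89.4) were in HSPC codes, namely 217 in HSPC3, 190 in HSPC2 and 18 in HSPC4. In the adult 80 of 129 (62.0%, 53.1 to 70.4) were in HSPC5 and 26 (20.2%) in Mono5. Of other HPs, 7.83% at E18.5 and 18.9% at P0, with 9.38% in the adult carried an HSPC code. The codes were built from the RNA of the same cells, so these shares are a description.

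Outside those codes the cells were scattered thinly. At E18.5 MyP2 held 5, EryP/MegP and Mono1i 2 each, and Eos/Bas2, Mast3 and Mono1iv 1 each. At P0 Mono2 held 14, LymP 13, MegP1 13 and Mono1 11, and 9 further codes held 1 or 2 each. In the adult MegP2 held 9 and Neu3 4, with 1 or 2 in each of 7 others. At E16.5, 5 of the 7 cells were coded TCell5 and 2 HSPC1.

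Summed lineage genes of the cells in non-HSPC codes lay below, near or above those of their code, depending on the code. The 62 MyP1 cells at E18.5 had 748 CPM (713 to 785) of 10 neutrophil and monocyte progenitor genes, against 2947 CPM (2911 to 2984) in other MyP1 cells. The 26 Mono5 cells of the adult had 1576 CPM (1464 to 1694) against 16848 CPM in other Mono5 cells, and their 25 stem cell surface and effector genes summed to 1354 CPM against 402 CPM. Within the HSPC group, the 18 HSPC4 cells at P0 had 10414 CPM of the myeloid list, close to the 9670 CPM of other HSPC4 cells. The 9 MegP2 cells in the adult had 3831 CPM (3509 to 4174) of 7 megakaryocyte genes against 2208 CPM in other MegP2 cells. At P0 the 14 Mono2 cells had 2617 CPM (2459 to 2781) of the myeloid list against 3029 CPM (2938 to 3122) in other Mono2 cells, and 3837 CPM of 6 macrophage genes against 8064 CPM. The 11 Mono1 cells had 1011 CPM of the myeloid list against 1993 CPM and 2597 CPM of the macrophage list against 3002 CPM. The 13 LymP cells had 837 CPM (722 to 964) of 8 lymphoid priming genes against 981 CPM (956 to 1007), and the 13 MegP1 cells had 122 CPM (83.9 to 171) of the megakaryocyte list against 261 CPM (253 to 269) and 923 CPM (812 to 1045) of 8 erythroid genes against 984 CPM (968 to 999).

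**Figure D2:**
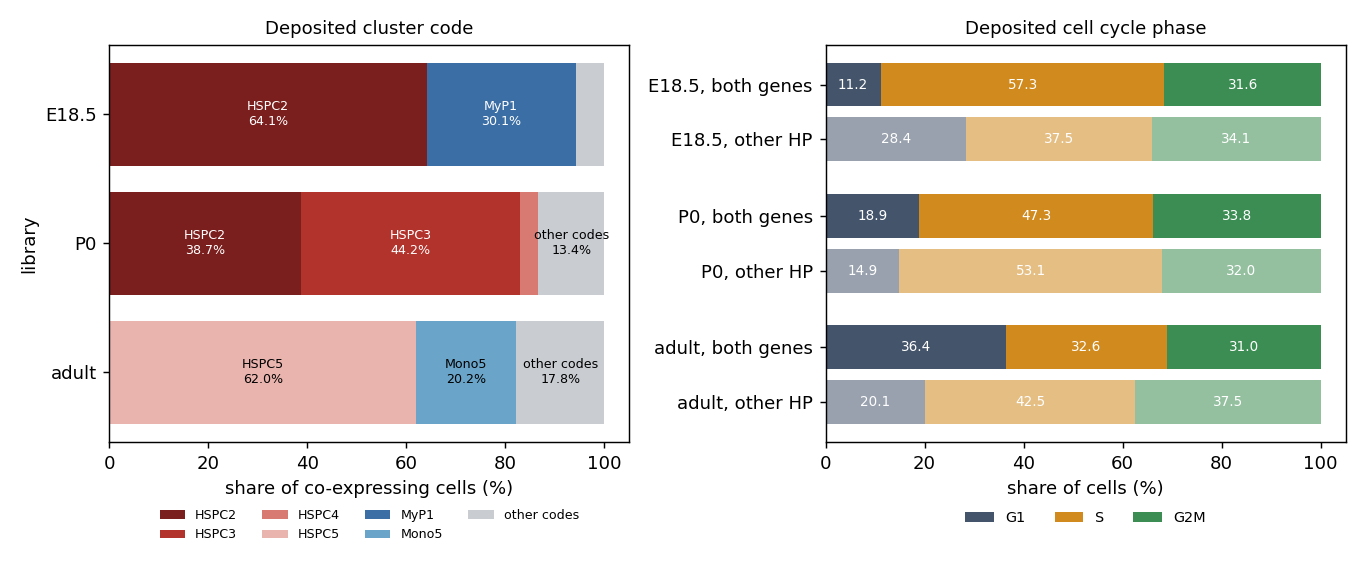
Cluster codes and cell cycle phases of co-expressing cells in the E18.5, P0 and adult libraries, in percent of cells, with other HP cells beside them for phase. HSPC codes held 64.1%, 86.6% and 62.0% of the co-expressing cells, and the G1 share was 11.2%, 18.9% and 36.4%.

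The phase calls that the authors deposited, made from S and G2/M gene scores, differed between the stages. Of the co-expressing cells, 11.2% were in G1, 57.3% in S and 31.6% in G2/M at E18.5. At P0 the shares were 18.9%, 47.3% and 33.8%, and in the adult 36.4%, 32.6% and 31.0%. Other HPs had 28.4% in G1 at E18.5 and 14.9% at P0, with 20.1% in the adult. The co-expressing cells thus had fewer G1 cells than the rest at E18.5 and more in the adult. At P0 their G1 share was higher too, but its interval (15.6 to 22.7) overlapped that of other HPs (14.0 to 15.8). Among cells of at least 5000 UMIs the G1 share was 11.2% against 32.8% at E18.5, 18.1% against 11.4% at P0 and 30.7% against 9.01% in the adult. Phase calls also follow depth and stray RNA, and their part in these differences was not tested.

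Within HSPC codes the co-expressing cells had the larger G1 share at every one of these stages. It was 16.7% (10.8 to 24.1) against 10.55% (7.07 to 15.0) in other HSPC-coded cells at E18.5, 19.3% (15.6 to 23.4) against 8.98% (7.34 to 10.8) at P0, and 57.5% (45.9 to 68.5) against 28.4% (24.7 to 32.4) in the adult. The intervals overlapped at E18.5 and not at the other stages. These are phase calls alone. In the same HSPC-coded cells the 15 G2/M genes summed to 2089 CPM against 2299 CPM at E18.5 and 895 CPM against 1075 CPM in the adult, but to 2085 CPM (2053 to 2117) against 1712 CPM (1695 to 1729) at P0, where the co-expressing cells were the higher ones. Codes split by phase at P0, where HSPC2 had 82 of 190 co-expressing cells in G1 (43.2%) and HSPC3 had 0 of 217, which allows up to 1.69%. The 62 MyP1 cells at E18.5 and the 26 Mono5 cells in the adult likewise had 0 in G1 (upper limits 5.78% and 13.2%), and 76.9% of the Mono5 cells were called G2/M.

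The antibody tags measure surface protein and were not used by the rule. A centered log-ratio (CLR) was taken per antibody within each library and a cell above a CLR of 1 was called positive. Sca-1, the antigen that with Kit defines immunophenotypic stem and multipotent progenitors, was positive on 74.3% (67.7 to 80.1) of co-expressing cells at E18.5 and 80.4% (76.7 to 83.9) at P0, with 89.9% (83.4 to 94.5) in the adult. Other HPs had 13.3%, 18.9% and 19.4%. The median Sca-1 count was 28, 59 and 64 on co-expressing cells and 2, 3 and 2 on the rest, so the groups were far apart in each library. None of the 7 cells at E16.5 was Sca-1-positive, which allows up to 97.5% (0 of 1) and 45.9% (0 of 6) by library. Other HPs of these libraries had 18.4% and 13.1%.

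A further set of antibodies divides Sca-1-positive Kit-positive cells into stem and multipotent subsets. CD48, a SLAM family antigen absent from most adult long-term HSCs, was positive on 73.8% of co-expressing cells at E18.5 and 47.9% at P0, with 44.2% in the adult, against 51.1%, 29.3% and 38.8% of other HPs. CD150, the SLAM antigen of long-term HSCs and MPP2s, was positive on 29.1%, 25.5% and 27.1% against 10.3%, 15.8% and 14.1%. CD135, the Flt3 receptor of multipotent progenitors with lymphoid potential, was positive on 20.9%, 20.4% and 31.0% against 6.11%, 7.87% and 8.67%. All 4 antigens were thus called positive more often on the co-expressing cells than on other HPs at each stage. Intervals overlapped only for CD48 in the adult (35.5 to 53.2 against 37.5 to 40.0). Calls for CD150 and CD135 rest on few counts. Median counts from E18.5 to adult were 4, 1 and 2 against 2, 1 and 1 for CD150, and 1, 1 and 1 against 1, 0 and 0 for CD135. The median CLR was the same in both groups for CD150 at P0 and for CD135 at E18.5. Depth was not held equal. Beside other HSPC-coded cells the order was not the same. Their median CLR from E18.5 to adult was 1.55, 1.04 and 1.07 for CD48, against 1.51, 0.944 and 0.929 on the co-expressing cells. For CD135 it was 0.749, 0.519 and 0.846 against 0.443, 0.519 and 0.51, while for Sca-1 it was 0.951, 0.729 and 1.28 against 1.99, 2.45 and 2.97. For CD150 it was 0.481, 0.375 and 0.35 against 0.805, 0.375 and 0.609.

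**Figure D3:**
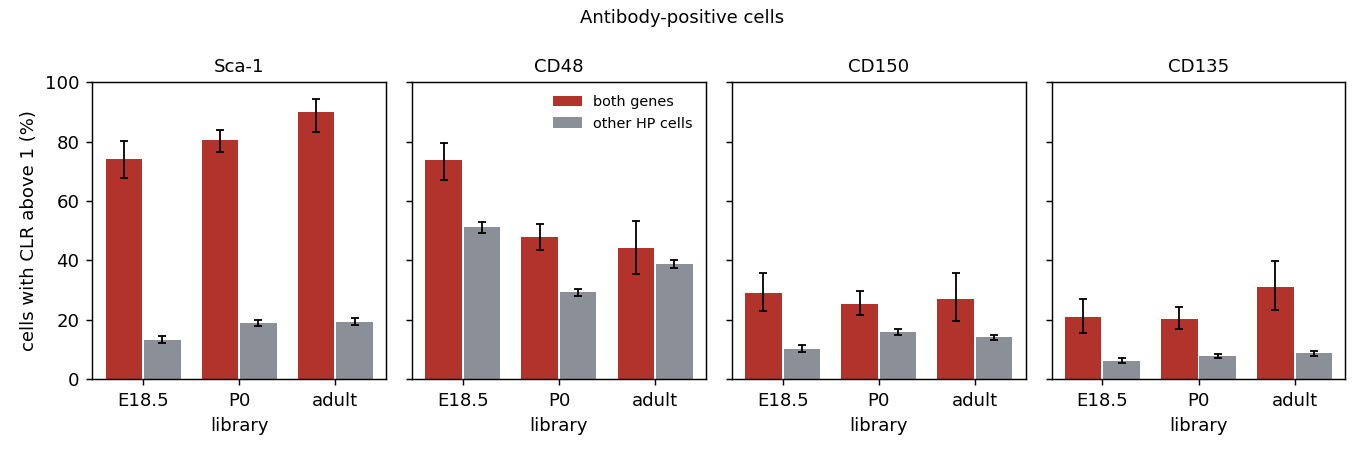
Percent of co-expressing and of other HP cells above a CLR of 1 for Sca-1, CD48, CD150 and CD135 at E18.5, P0 and in the adult, with exact 95% intervals. Sca-1 separates the groups most, at 74.3%, 80.4% and 89.9% against 13.3%, 18.9% and 19.4%.

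Few co-expressing cells met the full immunophenotype of a long-term HSC (phLT-HSC: Sca-1-positive, CD150-positive, CD48-negative and CD135-negative). The gate was set here at a CLR of 1 and is not the paper's own set of phLT-HSCs. At P0 and in the adult it held more cells than the paper reports for that set. They were 25 of 206 (12.1%, 8.01 to 17.4) at E18.5, then 52 of 491 (10.6%, 8.01 to 13.7) at P0, with 18 of 129 (14.0%, 8.48 to 21.2) in the adult, against 0.245%, 1.08% and 1.98% of other HPs. Looked at the other way, co-expressing cells were 75.8% (57.7 to 88.9, 25 of 33) of the phLT-HSC gate at E18.5. They were 45.6% (36.3 to 55.2, 52 of 114) at P0 and 13.4% (8.16 to 20.4, 18 of 134) in the adult. At a CLR of 0.75 these shares were 44.4%, 49.6% and 9.15% from E18.5 to adult, so the order of E18.5 and P0 turned. At a CLR of 1.5 they were 79.2%, 50% and 17.6%. Depth was not held equal, and a shallower cell has fewer chances to yield both genes. At E16.5 none of the 38 cells in the gate held a UMI of both genes (0 of 10 and 0 of 28 in the 2 libraries, which allows up to 30.9% and 12.3%). The phMPP2 gate (CD48-positive, otherwise the same) held 16, 32 and 9 co-expressing cells.

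The hscScore, a deposited score of resemblance to functional HSCs, was compared within bins of depth because it dropped with UMIs in all cells. The median was higher in co-expressing than in other HPs in 11 of 12 bins, by 0.000426 to 0.136. Examples, 1 bin per stage, were 0.123 against 0.0743 at E18.5 (10000 to 20000 UMIs) and 0.251 against 0.115 at P0 (5000 to 10000), with 0.137 against 0.0426 in the adult (5000 to 10000). The E18.5 and P0 examples are the bins with the largest gap of their stage. In the bins with most co-expressing cells the medians were 0.00454 against 1.4e-05 at E18.5 (20000 to 40000, 122 cells) and 0.0313 against 0.0229 at P0 (10000 to 20000, 248 cells). The exception was the adult bin from 10000 to 20000 UMIs, at 0.00795 against 0.0118. Against other HSPC-coded cells the median was higher in 9 bins and lower in 3, namely E18.5 from 40000 to 80000 UMIs and the adult bins from 10000 to 20000 (0.00795 against 0.0282) and from 20000 to 40000. The 9 include near ties in the bins with most co-expressing cells. These were 0.004536 against 0.004532 at E18.5 (20000 to 40000 UMIs) and 0.0313 against 0.0296 at P0 (10000 to 20000). The score is built from RNA of the same cells, so it adds no independent test.

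UMIs of co-expressing cells and of all other HPs were then summed per library and compared over the E18.5, P0 and adult libraries with edgeR's quasi-likelihood test, with the library as a block and Benjamini-Hochberg adjustment over all genes. This asks which other genes mark the cells whatever the stage. The 3 libraries leave 2 residual degrees of freedom, and p-values measure the spread between these libraries. Fold changes are on the log2 scale, co-expressing minus other. Of 13754 genes tested, 17.1% passed an adjusted p of 0.05, 8.25% higher and 8.88% lower in co-expressing cells, so any list below has to be read against those shares. The median log2 fold change of all genes was −0.02.

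In each direction, 12 genes were named by a rule of size (adjusted p under 0.05, the same direction in every library and at least 100 CPM in the higher cells of every library). The higher genes were led by Adgrl4, an adhesion G protein-coupled receptor, at 189 CPM, 223 CPM and 249 CPM in co-expressing cells of E18.5, P0 and adult against 34.7 CPM, 47.6 CPM and 33.9 CPM in other HPs (log2 fold change 2.40 ± 0.14 SE, adjusted p = 0.00023). Ctla2a, a cysteine protease inhibitor, had 605 CPM, 1159 CPM and 436 CPM against 121 CPM, 245 CPM and 59.0 CPM (2.37 ± 0.14, adjusted p = 0.00023). Angpt1, the ligand of the Tek receptor, had 144 CPM, 128 CPM and 212 CPM against 38.2 CPM, 39.1 CPM and 33.9 CPM (1.97 ± 0.17, adjusted p = 0.00076). In these 3 genes the lowest co-expressing library stood above the highest of the others. Gimap1 (1.62), the RNA-binding protein gene Msi2 (1.61), Cd34 (1.30), Tmem176b (1.25), Adgrg1 (1.23), Ifi203 (1.17), Ifitm3 (1.15), Nrgn (1.12) and the stem cell factor gene Lmo2 (1.08) followed. Within HSPC codes 4 of the 12 did not pass, namely Tmem176b (0.26), Ifi203 (0.11), Cd34 (−0.01) and Nrgn (−0.08).

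The lower genes were led by Mcpt8, a basophil protease gene, which had 10.3 CPM, 18.9 CPM and 18.4 CPM in co-expressing cells against 236 CPM, 141 CPM and 186 CPM in other HPs (−3.67 ± 0.28, adjusted p = 0.00046). Elane, neutrophil elastase, had 65.4 CPM, 196 CPM and 288 CPM against 655 CPM, 1028 CPM and 2125 CPM (−2.97 ± 0.17, adjusted p = 0.00023). The metallothionein gene Mt1 was at −3.22, the basophil protease gene Prss34 at −3.53 and the granule protease gene Ctsg at −2.60. S100a9 (−2.78), Ms4a3 (−2.53), Blvrb (−2.45), Cpa3 (−2.41), S100a8 (−2.34), Prtn3 (−1.91) and Mpo (−1.80) made up the rest. All of these had less in co-expressing cells in each of the 3 libraries. Within HSPC codes Blvrb was at −0.01 (adjusted p = 0.99 by edgeR), and Mcpt8 (−1.03), Prss34 (−0.30), Cpa3 (−0.76), S100a8 (−0.31) and S100a9 (−0.86) did not pass either, with adjusted p from 0.056 to 0.72, while the other 6 were called lower there.

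**Figure D4:**
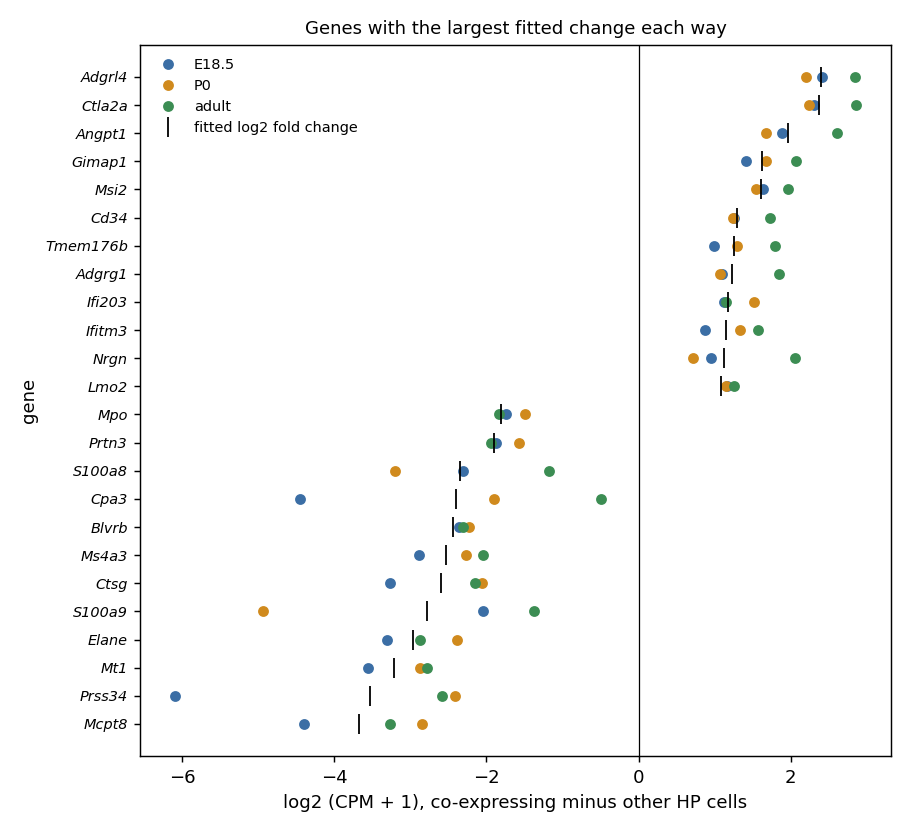
Log2 fold change, co-expressing minus other HP cells, of the 12 genes named each way, with black ticks at the fold change from edgeR's fit and points at the difference of log2 (CPM + 1) in the E18.5, P0 and adult libraries. The genes run from Adgrl4 at 2.40 to Mcpt8 at −3.67, and the points of each gene lie on one side of 0.

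Transcription factors of stem cells were mostly higher. Of 24 on the list, 15 were higher and 1 lower (against 8.25% and 8.88% of all genes), with a median of 0.96. Meis1, a Hox cofactor, had 103 CPM, 98.4 CPM and 134 CPM in co-expressing cells of E18.5, P0 and adult against 29.2 CPM, 28.0 CPM and 18.97 CPM in other HPs (2.02 ± 0.19, adjusted p = 0.00097). Its partner Hoxa9 had 111 CPM, 87.5 CPM and 60.3 CPM against 25.7 CPM, 25.03 CPM and 13.5 CPM (1.90 ± 0.12, adjusted p = 0.00025). Mycn, a Myc family factor, had 74.0 CPM, 43.1 CPM and 24.9 CPM against 9.27 CPM, 7.65 CPM and 3.19 CPM (2.69 ± 0.16, adjusted p = 0.00023). Hoxa5 (2.35), Hoxa10 (3.21), Erg (1.32), Prdm16 (1.25), Hoxb4 (1.25), Etv6 (0.86) and Hhex (0.66) were higher too. Within HSPC codes Prdm16 (0.62), Hoxb4 (0.60), Etv6 (0.23) and Hhex (0.11) did not pass. Hoxb5 was called at under 2 CPM in every library, and its log2 fold change of 5.21 rests on few UMIs. The 1 lower gene was Gfi1b (−1.15 ± 0.29), a factor of erythroid and megakaryocyte cells. Runx1 (−0.09), Myb (−0.19), Tal1 (0.23), Lyl1 (0.21), Fli1 (0.25) and Gata2 (−0.46) did not pass.

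Of 25 surface and effector genes linked to HSCs, 17 were higher and 0 lower, with a median of 1.35, and the remaining 8 did not pass. Procr, the endothelial protein C receptor used to isolate HSCs, had 22.7 CPM, 20.5 CPM and 6.55 CPM in co-expressing cells against 1.24 CPM, 1.62 CPM and 0.520 CPM in other HPs (3.76 ± 0.24, adjusted p = 0.00026). Esam, an adhesion molecule of HSCs, had 14.1 CPM, 17.2 CPM and 7.86 CPM against 0.595 CPM, 1.47 CPM and 0.728 CPM (3.76 ± 0.31, adjusted p = 0.00066). Ly6a, which encodes Sca-1, had 53.6 CPM, 78.6 CPM and 38.0 CPM against 20.0 CPM, 16.3 CPM and 5.17 CPM (2.00 ± 0.23, adjusted p = 0.0018), and so moved the same way as the protein. Robo4 (3.51), Pdzk1ip1 (3.08), Fgd5 (2.82), Tek (2.06), Gimap6 (1.90), Vwf (1.505), Ctnnal1 (1.35), Eng (1.17), Ltb (1.17), Cd27 (1.20) and Mllt3 (1.12) were also called. Slamf1, which encodes CD150, missed the threshold (0.88 ± 0.26, adjusted p = 0.055), as did Kit (0.59 ± 0.18, adjusted p = 0.061).

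At equal depth Procr and Meis1 were also found in more co-expressing than other cells. With cells thinned to 5000 UMIs, Procr was found in 12.2%, 11.7% and 3.26% of co-expressing cells at E18.5, P0 and adult, against 0.702%, 1.20% and 0.377% of other HPs. Unthinned, the shares were 37.4%, 25.7% and 6.98% against 1.80%, 2.92% and 0.495%. Meis1 was found in 41.0%, 40.3% and 48.4% of the thinned co-expressing cells against 12.3%, 13.7% and 9.01% of the rest. Unthinned, Meis1 was found in 91.3%, 79.2% and 70.5% against 25.2%, 33.0% and 11.4%.

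Most other HPs carried codes outside the HSPC group, and the test was repeated within HSPC codes alone, where 770 of 11011 genes (6.99%) passed, 3.75% higher and 3.24% lower. Of 1890 genes called over all HPs and tested here, 517 were called the same way and 156 had the opposite sign. Of the stem cell transcription factors 12 of 23 were higher and 1 lower, which was Runx1 (−0.41) and not Gfi1b (−0.02), and of the surface and effector genes 18 of 22 were higher and 0 lower. Procr (2.15), Esam (2.14), Pdzk1ip1 (2.28), Mllt3 (1.62), Ly6a (1.499) and Meis1 (0.83) were called there. Kit (0.48) and Slamf1 (1.19), which missed the threshold over all HPs, passed it here. Of the named genes called over all HPs, 9 turned in sign within HSPC codes with none of them called there, among them Cd34 (−0.01), Flt3 (−0.16), Hmga2 (−0.14) and Cd27 (−0.17). Gata2, not called over all HPs, was higher there (0.56, adjusted p = 0.0089 by edgeR).

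Genes of quiescence and of cell division gave a mixed picture. Of 14 cyclin-dependent kinase inhibitor, cyclin and quiescence genes, 5 were higher and 0 lower, with a median of −0.18. Cdkn1c, the inhibitor p57, had 41.0 CPM, 36.8 CPM and 3.28 CPM against 8.13 CPM, 7.97 CPM and 1.70 CPM (2.04 ± 0.22, adjusted p = 0.0015). Ndn (2.60), Foxo3 (0.69), Ccnd1 (0.64) and Ccnd2 (0.48) were also higher, and the inhibitor genes Cdkn1a (−0.36) and Cdkn1b (−0.06) did not pass. Within HSPC codes 3 of 13 were higher, Cdkn1c (1.39), Ndn (1.38) and Txnip (0.73), and 2 were lower, Cdkn1a (−0.63) and Cdk6 (−0.70). Of 14 S phase genes, Rrm2 (−0.92) and Slbp (−0.47) were lower and none was higher. Of 15 G2/M genes, only Plk1 (−0.60) was lower, and Mki67 (−0.29 ± 0.11, adjusted p = 0.12) and Top2a (0.01 ± 0.12, adjusted p = 0.96) did not pass.

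Imprinted growth genes were higher where they were called. Of 8 tested, 4 were higher and 0 lower (median 1.43), namely Meg3 (3.56), Ndn, Cdkn1c and Dlk1 (1.61). Dlk1, a Notch ligand family member, had 36.1 CPM, 30.8 CPM and 0.655 CPM against 10.8 CPM, 9.64 CPM and 0.243 CPM. In the HSPC codes 6 of 7 were higher, with Grb10 (1.45) and H19 (1.15) added. The adult cells held few UMIs of any of them.

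No relative of Hlf was called higher with it. Of Tef and Dbp, the other PAR bZIP genes, and Nfil3, a bZIP repressor that competes for the same DNA sites, Nfil3 was called and was lower. Tef had 9.597 CPM, 11.5 CPM and 10.49 CPM in co-expressing cells against 8.23 CPM, 7.40 CPM and 4.84 CPM (0.49 ± 0.21, adjusted p = 0.15). Dbp was at 0.59 ± 0.23 (adjusted p = 0.12). Nfil3 had 3.14 CPM, 2.91 CPM and 0.655 CPM against 13.6 CPM, 6.53 CPM and 4.79 CPM (−1.80 ± 0.29, adjusted p = 0.0073).

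Receptors for niche signals split. Of 16, 3 were called higher, among them Tek (2.06) and Flt3 (1.55), and 3 lower, which were Cxcr4 (−0.91), the receptor for Cxcl12, Epor (−2.00) and Csf2rb (−1.09), with a median of 0.05. Cxcr4 had 13.9 CPM, 23.5 CPM and 31.5 CPM in co-expressing cells against 34.1 CPM, 34.2 CPM and 47.5 CPM in other HPs, and remained lower within HSPC codes (−0.61). Integrin genes Itga4 (−0.51, adjusted p = 0.051) and Itgb1 (−0.07) did not pass.

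Against all other HPs, most of which carried non-HSPC codes, most lineage genes were lower. Of 8 erythroid genes 7 were lower (median −2.67), of 10 neutrophil and monocyte progenitor genes 8 (median −1.87), of 7 mast cell and basophil genes 6 (median −3.13) and of 8 B cell genes all 8 (median −3.26). None of these was higher. Of 6 T cell genes 4 were lower and of 5 MHC class II genes 4. Lymphoid priming genes had 1 higher, Flt3, and 3 lower of 8, the latter being Il7r (−2.58), Rag1 (−2.64) and Rag2 (−1.38). Megakaryocyte genes differed, with Gp9 (1.30) and Vwf higher and none of 7 lower. Within HSPC codes Gp9 (0.51) did not pass and Pf4 (0.97) was the 1 of 4 that was higher. Car2 was the erythroid gene not called (0.31). Within HSPC codes the picture differed by list. Of 7 lymphoid priming genes 5 were lower there (median −1.05), namely Dntt, Il7r, Satb1, Notch1 and Rag2. The lymphoid list summed to 263 CPM against 683 CPM at E18.5 and 398 CPM against 788 CPM in the adult. At P0 it was level, at 214 CPM (203 to 224) against 210 CPM (204 to 216). Of 10 neutrophil and monocyte progenitor genes 8 were lower, against 3 of 7 B cell genes and 0 of 4 mast cell and basophil genes. Of 5 erythroid genes Tfrc (−0.90) was lower and Car2 (1.05, adjusted p = 1.8e-06 by edgeR's quasi-likelihood test) was higher.

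Genes of stromal cells, which the CD45+ gate of the sort should remove, were near 0. Of 5 stromal genes tested, 3 were lower and 0 higher, and the list of 7 summed to 1.49 CPM, 3.88 CPM and 2.62 CPM in co-expressing cells against 12.6 CPM, 11.0 CPM and 27.2 CPM in other HPs. The 8 endothelial genes summed to 60.1 CPM, 69.1 CPM and 57.0 CPM against 33.1 CPM, 34.6 CPM and 35.4 CPM. Of them, Emcn (2.76), Tie1 (2.32) and Cldn5 were higher, while the defining gene Cdh5 was at most 0.662 CPM in the co-expressing cells of any library and Pecam1 was at 0.04 ± 0.12 (adjusted p = 0.87). Emcn and Tie1 are also expressed by HSCs. None of 6 macrophage genes was called. The macrophage list summed to 150 CPM, 240 CPM and 19.7 CPM in co-expressing cells against 842 CPM, 200 CPM and 21.9 CPM. At P0 the 14 cells coded Mono2 held 1509 and the 11 coded Mono1 held 696 of the 2231 macrophage UMIs, and the 425 HSPC-coded cells were at 3.11 CPM. At E18.5 the HSPC-coded cells were at 55.0 CPM.

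Of 13 interferon-stimulated genes 6 were higher and 0 lower, with a median of 0.45. They were Ifit1 (1.88), Oasl2 (1.68), Rsad2 (1.31), Ifitm3 (1.15), Isg15 (0.76) and Ifi27 (0.38). Within HSPC codes 4 of 13 were higher (median 0.24), and Isg15 (0.24) and Ifi27 (−0.27) did not pass. The list summed to 1317 CPM, 1554 CPM and 935 CPM in co-expressing cells against 835 CPM, 810 CPM and 469 CPM in other HPs, with P0 the highest of the 3. In HSPC-coded co-expressing cells it was 1560 CPM (1518 to 1603), 1599 CPM (1571 to 1627) and 1095 CPM (1017 to 1177). There the intervals of E18.5 and P0 overlapped. Other HSPC-coded cells had 1283 CPM, 1230 CPM and 830 CPM. Of 5 MHC class I genes H2-K1 (0.51) was higher. Of 12 immediate early genes, which respond to stress and handling, Nr4a1 (1.55) was higher and the other 11 were not called.

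The co-expressing cells of the 3 later stages were then set side by side. With 1 library per stage these are values without a test. Genes of the fetal stem cell program summed to 496 CPM (478 to 514) at E18.5 and 485 CPM (471 to 499) at P0, with 68.8 CPM (56.3 to 83.3) in the adult, so E18.5 and P0 overlapped and the adult lay 7.05-fold (5.81 to 8.64) below P0. Hmga2 held 2676 of the 4500 UMIs of the list at P0, and without it the ratio was 4.69 (3.65 to 6.11). Other HPs had 335 CPM, 296 CPM and 58.2 CPM. Against them, 3 of 7 genes of the list were higher in the test over the 3 libraries (Hmga2, Igf2bp1 and Igf2bp2) and 2 lower (Lin28a and Arid3a), and within HSPC codes 1 of 6 was higher (Igf2bp2) and 2 lower (Igf2bp3 and Arid3a). Hmga2, a chromatin protein of fetal HSCs, had 277 CPM, 288 CPM and 26.9 CPM, and Igf2bp2 59.9 CPM, 42.8 CPM and 7.86 CPM. Lin28b, the RNA-binding protein that sets the fetal state, had 18.0 CPM and 20.7 CPM before the adult and was found in 0 of 129 adult co-expressing cells, which allows up to 2.82% of cells with a UMI and sets no limit on cells that express the gene. At 5000 UMIs per cell it was found in 8.74% of the co-expressing cells at E18.5 and 9.92% at P0.

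**Figure D5:**
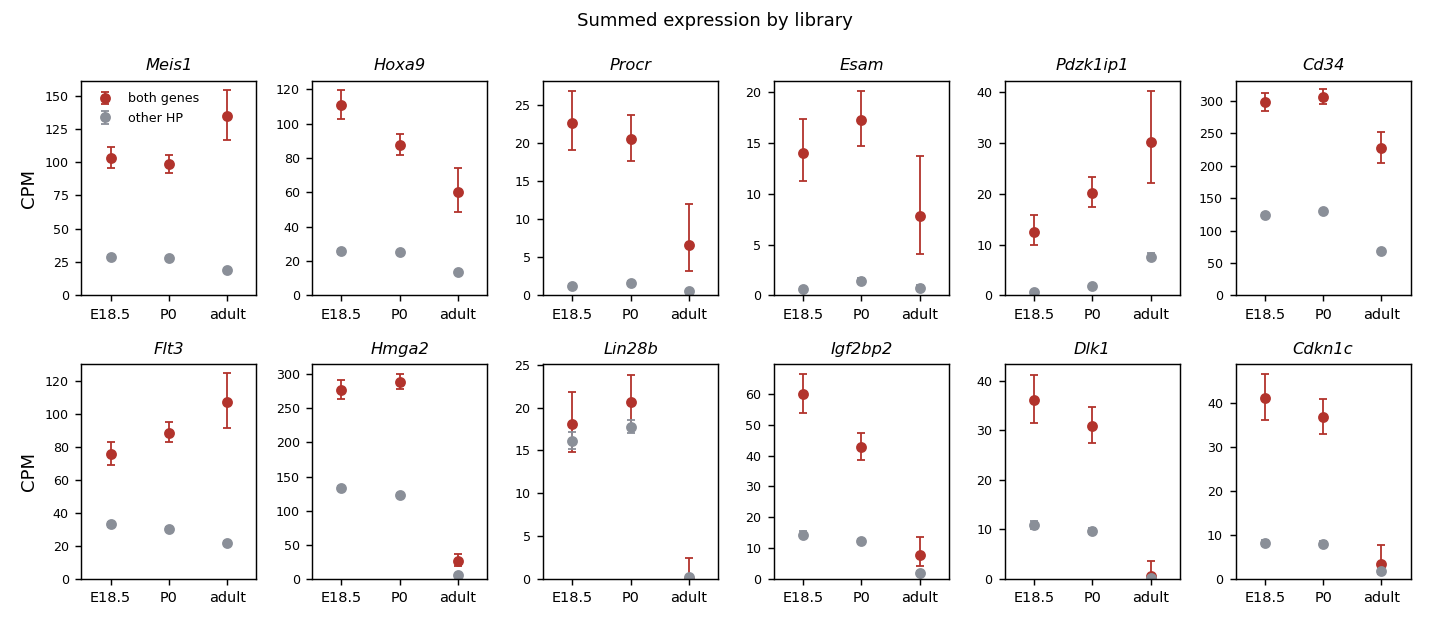
Summed CPM of 12 genes in co-expressing and in other HP cells at E18.5, P0 and in the adult, each on its own linear axis with exact Poisson 95% intervals. Hmga2 is at 277 CPM and 288 CPM in the perinatal co-expressing cells and at 26.9 CPM in the adult ones, while Meis1 stays between 98.4 CPM and 134 CPM.

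The largest ratios from P0 to adult, among genes of at least 100 CPM and 50 UMIs in the higher stage, were for Cma1 (at least 71.5-fold, against a floor of 3 UMIs over the adult cells), Hmga2 (10.7-fold) and the globin gene Hbb-bt (9.88-fold, 648 CPM to 65.5 CPM). In other HPs Hbb-bt went the other way, at 54.1 CPM at P0, with 283 CPM in the adult. Lsp1 (4.11-fold), Smad7 (3.99-fold), an inhibitor of TGF-β signaling, and Fkbp1a (3.84-fold) followed. Smad7 and Fkbp1a were also higher at P0 than in the adult in other HPs, by 2.22-fold and 2.31-fold, as were Hmga2 (19.8-fold), Cma1 (5.49-fold) and Lsp1 (2.12-fold). Cma1, a mast cell chymase gene, was found in 89 of the 491 P0 cells, with 874 of its 1304 UMIs outside HSPC codes and 21.9% of all its UMIs in 1 cell coded Mono2.

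Adult over P0, the 6 leading genes were neutrophil genes. They were Ngp, Camp (899-fold), Chil3 (at least 665-fold, against a floor of 3 UMIs over the P0 cells), Ltf, Lcn2 and S100a9 (203-fold). A single cell coded Neu3 held 37.9% of the Camp UMIs and 35.7% of the Chil3 UMIs. S100a9 was found in 128 of 129 adult co-expressing cells, and other adult HPs had 14015 CPM of it against 845 CPM at P0. In other HPs the adult was higher too, by 47.3-fold for Ngp, 35.7-fold for Camp, 133-fold for Chil3, 88.1-fold for Ltf and 28.0-fold for Lcn2. Within HSPC codes the ratio of co-expressing cells was 76.1-fold for Camp, 57.1-fold for Ngp, 19.2-fold for S100a9, 8.56-fold for Ltf and 7.02-fold for Lcn2. Whether stray RNA from granulocytes plays a part was not tested.

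Between E18.5 and P0 the largest ratios on the E18.5 side rested on 1 cell. Camp, BC100530, S100a9, Stfa1 and S100a8 led at E18.5, Camp by 92.5-fold, but 1 cell coded MyP2 held over 97% of the UMIs of each, and within HSPC codes all 5 were lower at E18.5 than at P0. Lars2, a mitochondrial leucyl-tRNA synthetase gene, was 2.29-fold higher at E18.5 (120 CPM against 52.6 CPM) and spread over the cells. Other HPs showed a larger ratio for it (2.74-fold, 135 CPM against 49.4 CPM), so it was not particular to the co-expressing cells. At P0 the leaders were Cma1 (30.3-fold), Cpa3 (4.12-fold), Ctsg (3.42-fold), Elane (3.01-fold), Mt1 (2.81-fold) and Cirbp (2.78-fold). Within HSPC codes the ratios were 14.4 for Cma1, 20.4 for Cpa3, 49.1 for Ctsg, 93.1 for Elane, 5.65 for Mt1 and 3.07 for Cirbp. The HSPC codes are HSPC2 alone at E18.5 and HSPC2, HSPC3 and HSPC4 at P0, and the 18 HSPC4 cells held 1578 of the 1716 Elane UMIs and 1329 of the 2038 Ctsg UMIs of the 425 HSPC-coded cells at P0. Cirbp, a cold-inducible RNA-binding protein gene, had 226 CPM at P0 against 81.2 CPM at E18.5, and other HPs showed nearly the same ratio (2.72-fold).

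Over all co-expressing cells the summed stem cell transcription factors lay close together, although single factors moved. Mycn and Hoxa9 fell from E18.5 to adult, and Meis1 was highest in the adult. The 24 transcription factors summed to 1798 CPM (1764 to 1832), 1841 CPM (1814 to 1869) and 1868 CPM (1800 to 1938), with overlapping intervals, while other HPs had 1262 CPM at E18.5 and 1011 CPM in the adult. The surface and effector list summed to 1812 CPM, 2124 CPM and 1594 CPM. Procr was lower in the adult (6.55 CPM) than at P0 (20.5 CPM), and Pdzk1ip1 was higher (30.1 CPM against 20.2 CPM). In HSPC-coded co-expressing cells the transcription factors summed to 1977 CPM (1930 to 2025), 1888 CPM (1858 to 1919) and 2074 CPM (1967 to 2186). There the intervals of E18.5 and P0 did not overlap. The surface and effector list summed there to 2150 CPM (2100 to 2200), 2185 CPM (2152 to 2218.5) and 2070 CPM (1963 to 2181). These intervals overlapped.

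The 7 cells at E16.5 are given beside the rest of their libraries. Their 6 T cell genes summed to 1176 CPM (965 to 1418) on 109 UMIs, against 3152 CPM in other HPs at E16.5. Their 15 G2/M genes summed to 5317 CPM (4858 to 5808) against 2258 CPM, and their 7 mast cell genes to 259 CPM against 26935 CPM. The stem cell transcription factors summed to 1197 CPM (985 to 1442) against 999 CPM. These sums pool HSPC-coded and T cell-coded cells, which differed in single genes. The 2 HSPC-coded cells held all 8 UMIs of Cd34, all 6 of Adgrl4 and 13 of the 14 of Hmga2. Ctla2a went the other way, with 25 UMIs in them and 61 in the other 5 cells. By cluster code 5 of the 7 were TCell5, and by phase 4 were in G1, 3 in G2/M and 0 in S.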

How the data were processed

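HP libraries (2 at E16.5, 1 each at E18.5, P0 and adult) were made by the authors with the Chromium 3′ v3.1 kit and TotalSeq-A antibodies. The authors counted UMIs with Cell Ranger 3.1.0 on mm10 and used Seurat 3.1.5 in R 4.0, per the labels and methods, and deposited raw UMI counts (20275 genes, 56201 cells) and raw antibody counts. They kept cells with at least 300 UMIs, a mitochondrial share under 7.5% and genes and UMIs under the 98th percentile, and genes found in at least 30 cells. The deposited table of cells gives library, cluster code and phase, the mitochondrial share as a fraction, and hscScore and cell cycle values as a score. No doublet caller was run here.

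The members and gene lists were chosen with earlier results of these data known. Cells with at least 1 UMI of Hlf and of Mecom were compared with the other HP cells of their library. Intervals are at the 95% level. UMIs were summed per library and set of cells and tested with edgeR 4.0.16 in R 4.3.3 (TMM, default filter on low counts, quasi-likelihood F test, library as block, adjusted p threshold 0.05). Hlf and Mecom entered the fit but were left out of every count and list of genes, also within HSPC codes. The E16.5 libraries, with 1 and 6 members, were too small to enter. The test was checked on simulated counts. The labels give replicate numbers only to the E16.5 pair; the block pairs both sets of cells of 1 library.

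Named genes were all those of the lists, the 12 largest changes each way (adjusted p under 0.05, same direction in the 3 libraries, at least 100 CPM in the higher cells of each) and, between stages, the 6 largest CPM ratios each way (at least 100 CPM and 50 UMIs). Mitochondrial and ribosomal protein genes, Gm42418, Xist and Y-linked genes were left out. Values of some listed genes are not reported here. Alternatives changed the UMI minimum, depth, CLR level, filter, normalization, tool (DESeq2 1.42.0), block, libraries and cells compared. Python 3.11.15, numpy 2.4.6, scipy 1.17.1, pandas 2.3.3 and matplotlib 3.10.9 were used.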

Additional observations from a re-analysis of the deposited data

Results flagged for a closer look

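In several measures the co-expressing cells stood on opposite sides of other HPs at different stages. With 1 library per stage the differences between stages were not tested.

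The G1 share of co-expressing cells minus that of other HPs was −17.2 percentage points at E18.5 and 16.4 points in the adult.

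Summed levels of gene lists are given as the ratio of co-expressing to other HPs. Receptors for niche signals were at 0.888 at E18.5 and 1.14 at P0, with 1.49 in the adult. Megakaryocyte genes were at 0.232, 0.751 and 2.28, and 9 adult cells coded MegP2 carried most of the adult level. Erythroid progenitor genes were at 1.09, 0.727 and 0.398, and at E18.5 most of the sum was Car2, the 1 gene of the list that was not lower in the test. Macrophage genes were at 0.178 at E18.5 and 1.20 at P0, where 14 cells coded Mono2 and 11 coded Mono1 held most of the UMIs. G2/M genes were at 1.05, 1.05 and 0.778 from E18.5 to adult, and immediate early genes at 0.453 at E18.5 and 1.55 in the adult.

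Outside the HP libraries, 492 of 35219 stromal cells also held both genes. They were 84 of 8226 cells at E16.5 (1.02%), 74 of 6642 at E18.5 (1.11%) and 281 of 14084 at P0 (2.00%), with 53 of 6267 in the adult (0.846%). The code F2 held the most at E16.5 (37 of 640 cells, 5.78%), at E18.5 (25 of 696, 3.59%) and at P0 (92 of 944, 9.75%).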

How the results depend on the processing

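Shares of co-expressing cells moved with the UMI minimum and with depth. With at least 2 UMIs of each gene they were 0.0377%, 2.90%, 2.96% and 0.418% from E16.5 to adult. Thinned to 2000 UMIs they were 0.0130%, 0.706%, 0.846% and 0.462%. Thinned to 5000 UMIs, the E18.5, P0 and adult shares were 2.33%, 2.86% and 1.49%. Thinned to 10000 UMIs, a setting added after seeing the data, the E16.5, P0 and adult shares were 0.0327%, 4.88% and 1.47%. Either E16.5 library alone gave 0.126% to 0.179%. With 2 UMIs of each, HSPC codes held 71.3% at E18.5 and 52% (25 cells) in the adult. Within HSPC codes the G1 share was 16.7% at E18.5 and 57.5% in the adult. At a CLR of 0.75, Sca-1 was positive on 83.0% at E18.5 and 84.3% at P0. At a CLR of 1.5 it was on 62.6%, 70.7% and 82.9% from E18.5 to adult.

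Of 13754 genes 2357 were called by edgeR. No replicate block, that is no library block, left 304, the pairing of both sets of cells in a library being dropped. HSPC codes only gave 770 of 11011, and leaving out cells with shared barcodes (added after seeing the data) 1501. Leaving out a library gave 1373 (without the adult) to 3166 (without E18.5). Without TMM, 1455 genes were higher and 905 lower, against 1135 and 1222. Of 121 named and called genes, DESeq2 kept 114 past the threshold, no library block 36, leaving out the adult library 100 and shared barcodes 103, and HSPC codes only 61 of 105 tested. No setting but HSPC codes only turned any. There Ccnd1 (−0.093), Cd27 (−0.17), Cd34 (−0.0098), Flt3 (−0.16), Hmga2 (−0.14), Hoxa7 (−0.012), Ifi27 (−0.27) and Nrgn (−0.076) turned negative and Cma1 (0.54) positive. The P0 to adult ratio of the fetal program was 8.83 there, and 4.69 without Hmga2 (added after seeing the data), since that gene holds most of the UMIs. The E18.5 to P0 ratios of Camp (0.110), BC100530 (0.334), S100a9 (0.256), Stfa1 (0.114) and S100a8 (0.0525) turned, since 1 MyP2 cell was left out. At P0 over E18.5, Cma1 (14.4), Cpa3 (20.4), Ctsg (49.1), Elane (93.1) and Mt1 (5.65) moved in HSPC codes. The other causes were not tested. The number of cells limits E16.5 (7 cells), and depth limits Mecom, with a single UMI in 47.6%, 58.9% and 76.7% of the cells from E18.5 to adult.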
